A study of Mus musculus with 9 samples.

Results

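The genes of 4 families that cut or protect the matrix around cells were followed in the retinal pigment epithelium (RPE) of mice: the matrix metalloproteinases (Mmp), the membrane-bound Adam proteases, the secreted Adamts proteases, and the tissue inhibitors of metalloproteinases (Timp). Members were the genes whose symbol is Mmp, Adam, Adamts or Timp followed by a digit and whose raw counts summed to at least 100 over 9 libraries. The deposited table held 80 such symbols among 40202 genes, and 67 reached the threshold: 20 of 23 Mmp, 24 of 34 Adam, 19 of 19 Adamts and 4 of 4 Timp genes. Of the other 13, Mmp7, Adam6a and Adam26b had no count in any library. Adam25 lay just inside the threshold with 113 counts, and Adam18 just outside it with 80. All 67 members also passed edgeR's filter on low counts, so each was tested.

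RNA was measured by bulk sequencing in 3 groups of 3 libraries, all from wild-type mice. Young controls were 9 months old and aged controls 24 months old. The treated group was also 24 months old and had been given vutiglabridin, a small molecule derived from the licorice flavonoid glabridin, for 6 months. The labels give neither sex nor sequencing batch and do not say that libraries came from separate animals, so p-values measure only the spread between these samples. Levels below are CPM (counts scaled to 1000000 per library), a log2 fold change is given ± its standard error (SE), and n is 3 libraries per group. A member was called when edgeR's quasi-likelihood test gave an adjusted p under 0.05 over all 25273 genes tested.

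Metalloproteinases are zinc enzymes made with a propeptide that keeps the active site shut until it is removed. Mmps cut collagens, elastin, laminins and one another; Adams release the outer parts of membrane proteins such as growth factors and cytokine receptors; Adamts proteases trim proteoglycans and the ends of procollagens. Timps bind the active sites of Mmps and of some Adams and Adamts enzymes. The RPE rests on Bruch's membrane, an elastin and collagen sheet that these enzymes remodel, and mutations in human TIMP3 cause Sorsby fundus dystrophy, a disease of that sheet.

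Total counts ran from 44196290 to 56797891 per library, of which members held 0.476% to 0.591%, and Timp3 alone held 52.28% to 64.39% of the members' counts. RPE markers were abundant (summed level of 13 markers 24460 to 27270 CPM in young, 19230 to 22510 in aged and 12060 to 20900 in treated libraries). Treated replicate 2 stood apart in a multidimensional scaling plot, with 5131 CPM in 5 red cell genes against 91.1 to 644.4 in the other libraries and 423.2 CPM in 11 stratified epithelium genes against 50.73 to 114.5. It also had the lowest summed level of RPE markers of the 9 libraries, 12060 CPM, against 20900 and 16260 CPM in treated replicates 1 and 3. Young replicate 1 stood apart on the next axis. In bulk RNA, fewer cells of a type and less RNA per cell cannot be told apart.

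With age, 2 members were called, both higher and both Mmps: Mmp14 and Mmp12. Over all genes 1.68% were called (1.48% higher and 0.202% lower), so 2 of 67 lies near the background share. Aged libraries lay wholly above young ones for 21 members, against 13.2% of all genes, and wholly below for 9, against 12.1%. An unadjusted p under 0.05 was found for 17 members, against 11.7% of all genes. Fitted changes were above 0 for 40 members, against 47.6% of all genes. The median log2 fold change with age was 0.08 over the members and -0.01 over all genes. By family it was 0.23 for Mmps, 0.03 for Adams, -0.07 for Adamts genes and 0.44 for the 4 Timps. The age count ranged with single libraries: it was 4 without treated replicate 2 or 3, 1 without young replicate 3 or aged replicate 2 or 3, and 0 by edgeR without aged replicate 1, where 14 members had an unadjusted p under 0.05. Shares of all genes called in these fits are not given here, so the counts have no background beside them.

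With treatment in aged mice, 4 members were called: Adam8, Adam9 and Adamts3 were higher and Mmp15 was lower. The share over all genes was 4.34% (2.37% higher and 1.97% lower), so 4 of 67 is also near the background. Treated libraries lay wholly above aged controls for 15 members and wholly below for 8, against 14.7% and 17.5% of all genes. An unadjusted p under 0.05 was found for 19 members, against 24.7% of all genes, and a change above 0 for 36, against 48.5%. The median log2 fold change was 0.03 over the members and -0.01 over all genes. By family it was 0.05 for Mmps, -0.03 for Adams, 0.22 for Adamts genes and 0.05 for Timps. Without any one of the 3 aged controls, 1 member was called, and without young replicate 2 or 3 it was 2. Without treated replicate 3 it was 17, 10 of them higher and 7 lower, in a fit where 15.9% of all genes were called. For the fits without another library that share is not given here.

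Between treated aged and young RPE, 13 members were called, 12 higher and 1 lower. Of all genes 16.7% were called, 9.01% higher and 7.69% lower, and the members' median log2 fold change was 0.13 against -0.01. Higher were Mmp12, Mmp13, Mmp14, Mmp19, Adam8, Adam9, Adam28, Adamts3, Adamts4, Adamts14, Timp1 and Timp2; Adam7 was lower. Treated libraries lay wholly above young ones for 17 members and wholly below for 5, against 15.9% and 17.3% of all genes. An unadjusted p under 0.05 was found for 22 members, against 34.2% of all genes, and a change above 0 for 43, against 49.4%. The count was 6 without young replicate 1, 8 without young replicate 2 and 19 without treated replicate 3. It was 8 without both libraries that stood apart, where Adam7, Adam9, Adam28, Adamts4, Mmp19 and Timp2 were lost and Adam32 was gained. That setting left the counts with age and treatment at 2 and 4 with other members: with age Mmp12 was lost and Adamts15 gained, and with treatment Adam9 and Mmp15 were lost and Adam32 and Adamts15 gained. How many of all genes were called in these fits is not given here, so their counts have no background beside them. All 3 comparisons share libraries with one another, so their results are not independent. In the 3 comparisons together 14 members were called and 53 were not. Of these 14, 13 were called between treated and young RPE, where 16.7% of all genes were called. The share of all genes called in at least 1 comparison was not computed, so the count of 14 has no background beside it.

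**Figure D1:**
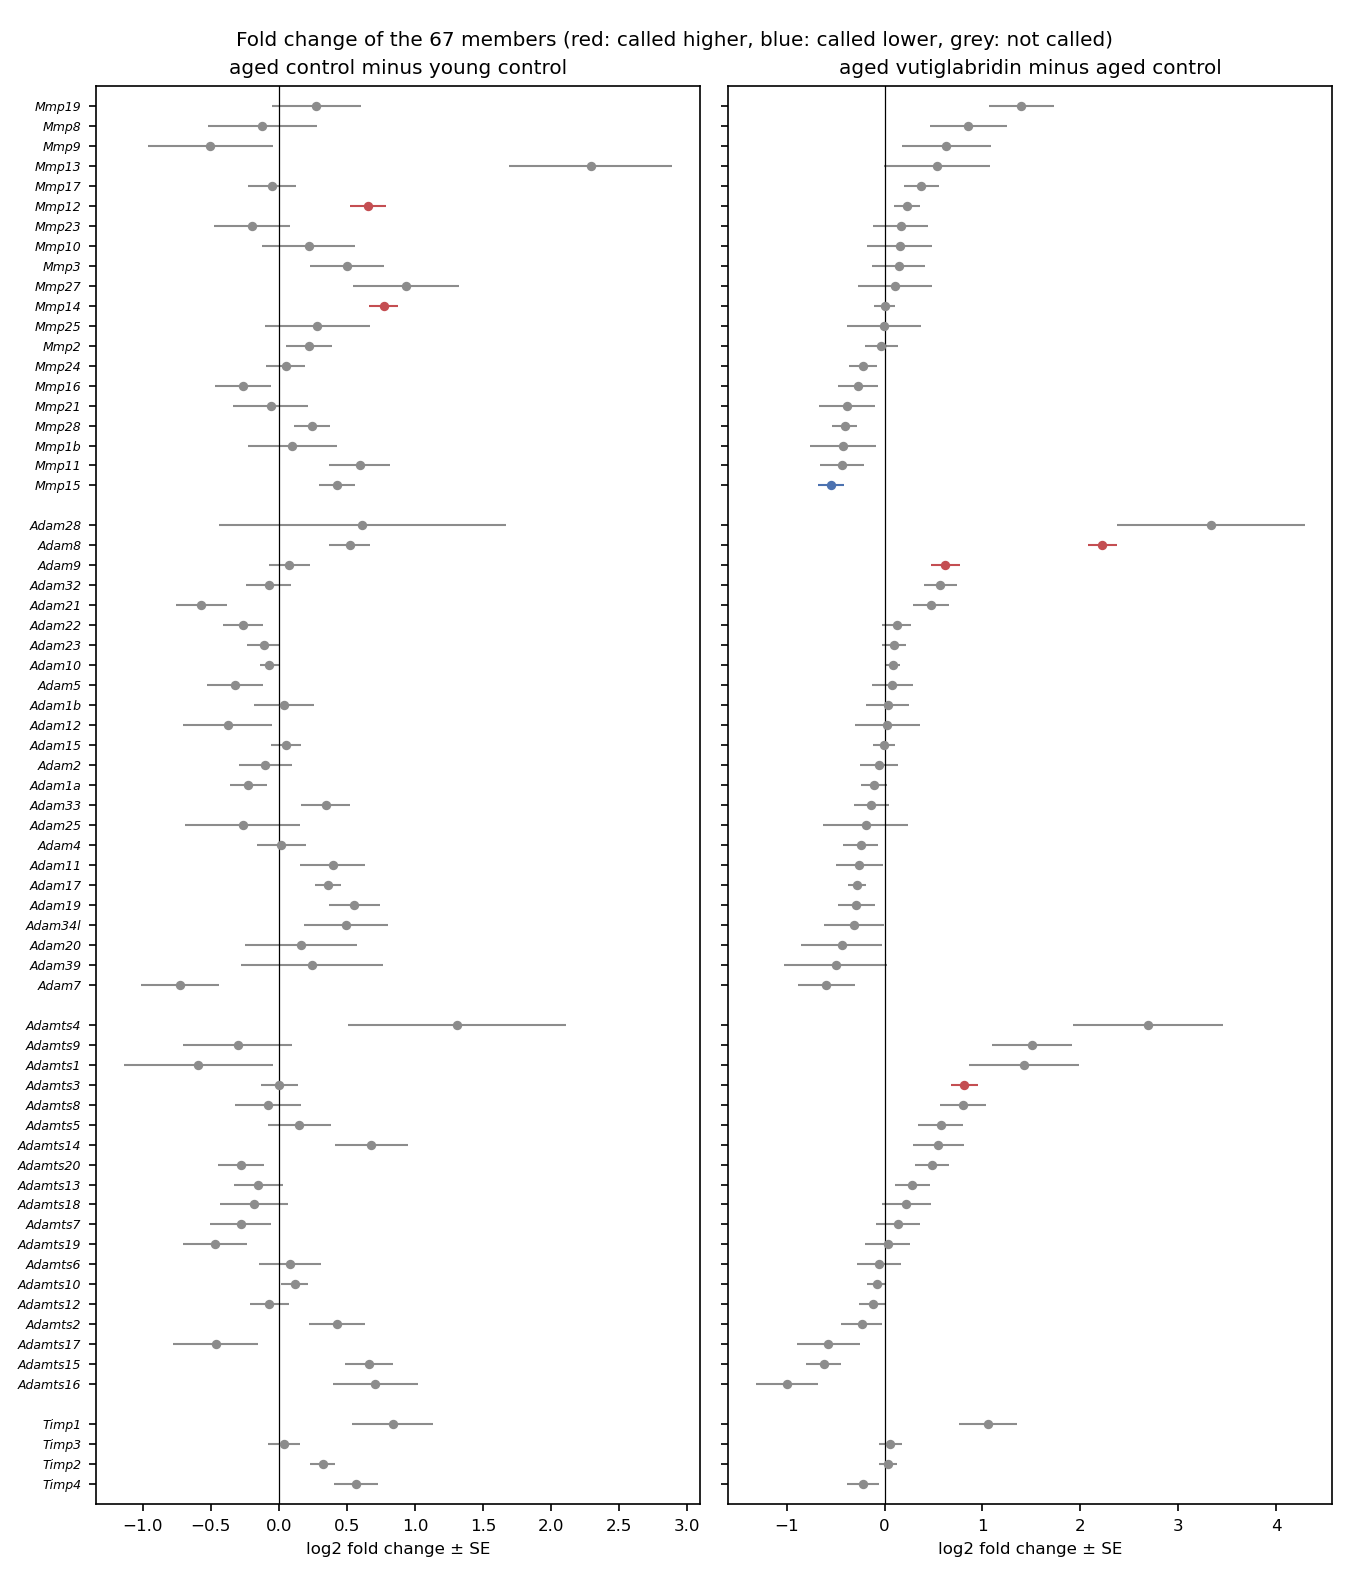
Log2 fold change of each of the 67 members with its SE (horizontal axis) with age and with treatment in aged mice, members in rows by family. Red marks members called higher, blue those called lower and grey those not called. There are 2 called members with age and 4 with treatment.

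**Figure D2:**
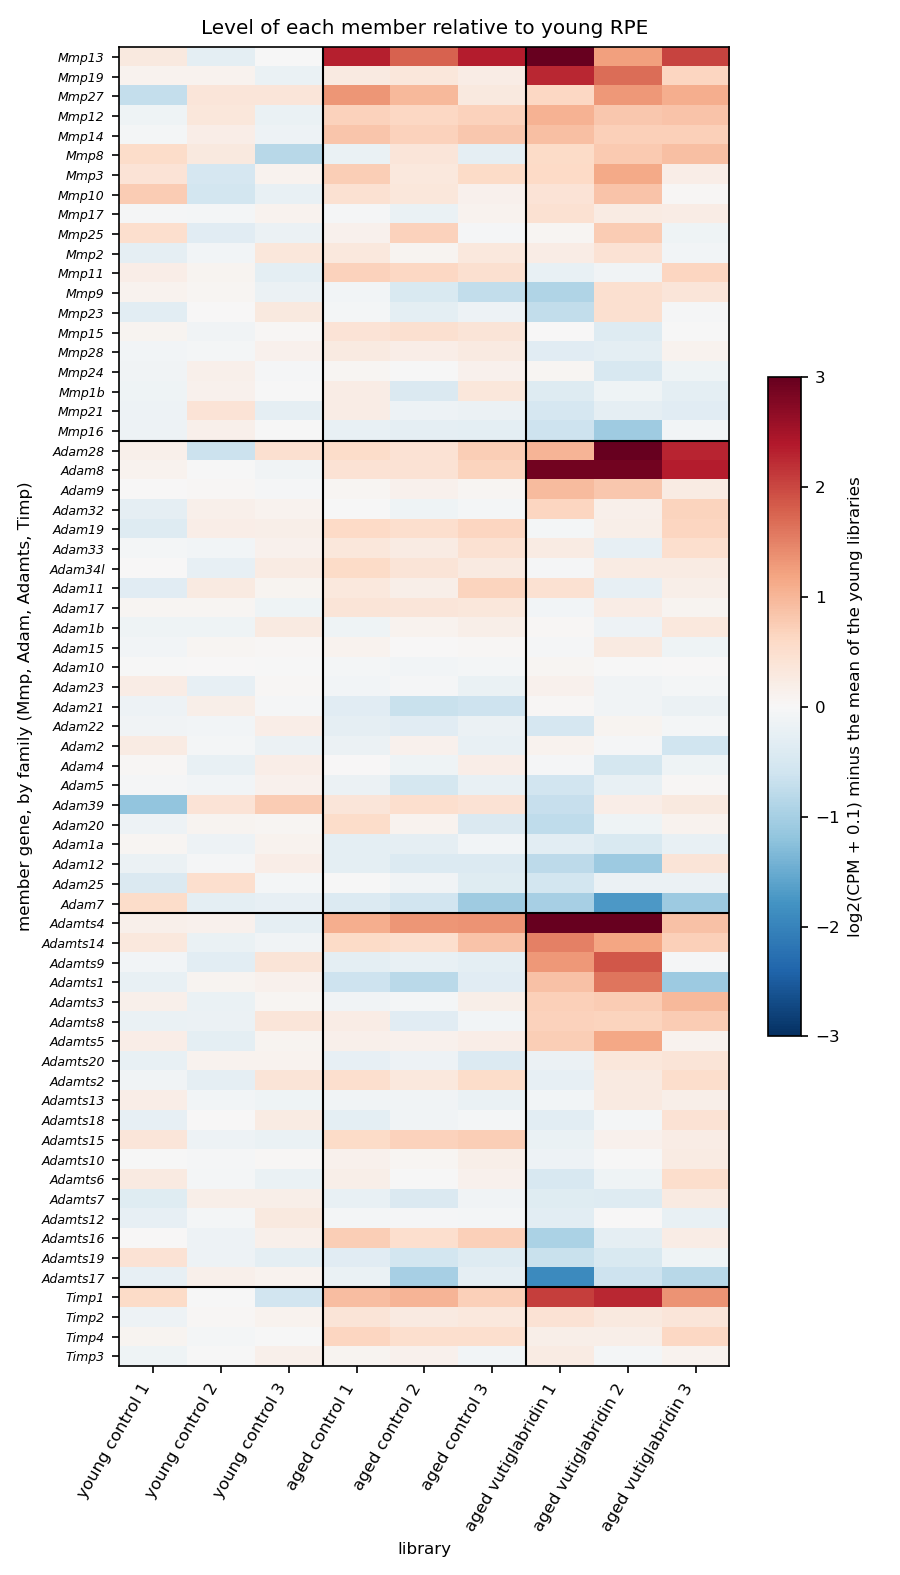
Level of each member in each library as log2(CPM + 0.1) minus the mean of the 3 young libraries, members by family and libraries by group, with colours that saturate at 3 on either side. Mmp14 is raised in all aged and treated libraries, and Adam8 in the treated ones.

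Mmp14 encodes the membrane-anchored collagenase MT1-MMP, which also activates pro-Mmp2. It lies on chromosome 14 from 54669055 to 54679913 (plus strand, coordinates as deposited). In young RPE Mmp14 stood at 52.0, 62.4 and 48.4 CPM, in aged controls at 96.0, 87.3 and 94.4 CPM, and in treated libraries at 100.9, 88.6 and 88.0 CPM. Every library from 24-month-old mice, treated or not, was above every young one, while aged control and treated libraries overlapped. Mmp14 rose with age by 0.77 ± 0.11 on the log2 scale (adjusted p = 0.00835), from 54.2 ± 7.30 to 92.5 ± 4.63 CPM (SD). It was 92.5 ± 7.30 CPM with treatment (adjusted p = 0.997 against aged controls, 0.00308 against young). The age call was lost without aged replicate 1 (adjusted p = 0.0536), and the call against young held without each library in turn. Mmp2, the gelatinase that Mmp14 activates, was not called in any comparison (adjusted p = 0.705, 0.918 and 0.462).

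Mmp12 encodes macrophage metalloelastase, which degrades elastin. It read 32.8, 45.3 and 31.2 CPM in young libraries, 58.3, 55.7 and 58.2 CPM in aged controls and 73.7, 63.1 and 65.3 CPM in treated ones. The 3 groups did not overlap, with young lowest and treated highest. Mmp12 rose with age by 0.66 ± 0.13 (adjusted p = 0.038) and stood 0.89 ± 0.13 above young in treated RPE (adjusted p = 0.00411), while the step from aged control to treated, 0.23 ± 0.13, was not called (adjusted p = 0.307). Leaving out young replicate 1, young replicate 3 or any aged control ended its age call (largest adjusted p = 0.163), as did leaving out both libraries that stood apart (adjusted p = 0.0874). Most macrophage and microglia markers moved alongside: 8 of 20 were called higher with age, against 1.48% of all genes, and none lower. An age change above 0 was found for 18, against 47.6% of all genes. Their summed level was 1621 to 2697 CPM in young, 3990 to 4427 in aged and 3485 to 4468 in treated libraries. Most of it was Lyz2, at 917.4 to 1770, 2798 to 3100 and 2448 to 3331 CPM. P2ry12, Tmem119 and Sall1 were not called with age. Their means were 15.0, 25.1 and 0.728 CPM in young and 15.8, 24.3 and 0.584 CPM in aged libraries. With treatment 1 of the 20 was called higher (Cd14) and 1 lower (Aif1), against 2.37% and 1.97% of all genes. The lowest of them in any library, Sall1, was at 0.300 CPM, so none was at 0, and their part in the Mmp12 result was not tested.

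Mmp12 lies in a run of Mmp genes on chromosome 9 (7272514 to 7699586, coordinates as deposited) that holds 10 Mmp genes, 7 of them members: Mmp13, Mmp12, Mmp1b, Mmp3, Mmp10, Mmp8 and Mmp27. The promoter windows of Mmp13, Mmp12 (the second annotated start), Mmp3 and Mmp10 are printed because each holds an AP-1 motif shortly before the start, and AP-1 is the Fos and Jun dimer known to act on several Mmp genes. The window of the other annotated Mmp12 start (chr9:7344147-7344446) holds no AP-1 motif, nor any other motif searched, and is not printed. Capitals mark the motif TGANTCA, searched on both strands; in these 4 windows it overlaps no match of the other motifs searched. The sequences are RefSeq's for GRCm38.p6, run 5′ to 3′ on the plus strand from 250 bases before to 50 bases after the annotated start, and cover chr9:7272264-7272563, chr9:7347124-7347423, chr9:7445572-7445871 and chr9:7502092-7502391.
Mmp13: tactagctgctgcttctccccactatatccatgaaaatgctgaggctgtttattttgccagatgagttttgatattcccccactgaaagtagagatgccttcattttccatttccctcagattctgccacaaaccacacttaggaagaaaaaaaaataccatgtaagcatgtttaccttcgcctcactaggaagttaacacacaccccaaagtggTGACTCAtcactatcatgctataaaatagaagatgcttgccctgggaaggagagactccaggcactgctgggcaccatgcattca
Mmp12: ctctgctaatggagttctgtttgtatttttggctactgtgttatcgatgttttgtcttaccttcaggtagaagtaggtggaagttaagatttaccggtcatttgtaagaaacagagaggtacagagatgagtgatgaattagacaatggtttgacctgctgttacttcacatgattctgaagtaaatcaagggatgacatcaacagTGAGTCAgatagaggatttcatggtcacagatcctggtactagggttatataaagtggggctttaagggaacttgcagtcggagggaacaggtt
Mmp3: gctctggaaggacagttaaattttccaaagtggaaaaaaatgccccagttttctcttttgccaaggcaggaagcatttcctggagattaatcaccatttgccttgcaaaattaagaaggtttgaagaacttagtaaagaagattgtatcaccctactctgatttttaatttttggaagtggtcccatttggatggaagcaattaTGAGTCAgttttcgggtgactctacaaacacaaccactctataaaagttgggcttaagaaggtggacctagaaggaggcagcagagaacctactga
Mmp10: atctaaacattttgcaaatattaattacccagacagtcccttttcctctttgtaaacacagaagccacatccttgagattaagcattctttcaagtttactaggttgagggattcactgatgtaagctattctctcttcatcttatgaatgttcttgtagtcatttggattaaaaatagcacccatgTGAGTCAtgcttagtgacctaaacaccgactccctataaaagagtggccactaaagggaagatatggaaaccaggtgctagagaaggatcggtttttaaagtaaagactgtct

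Counted from the annotated start, the motif began at position -35 in Mmp13, -44 in Mmp12, -46 in Mmp3 and -63 in Mmp10. RefSeq's table matched 42 of the 67 members with 46 windows, and 9 windows (19.6%) held TGANTCA, against 2565 of 32851 windows of all genes (7.81%). Those 9 belonged to Mmp1b, Mmp3, Mmp10, Mmp12, Mmp13, Adam1b, Adam19, Adam20 and Adam25. The Mmp genes among them all lie in the run on chromosome 9, and Adam20 and Adam25 lie near each other on chromosome 8. Windows of such neighbours cannot be taken as independent, so the 2 shares are a description only. A TATA box written TATAAA was in 9 member windows (19.6%, against 13.6%), and the STAT motif TTCNNNGAA in 4 (8.7%, against 8.3%). Of the 9 genes with an AP-1 motif, 1 was called higher with age, 0 with treatment by edgeR and 2 between treated and young RPE. The shares of all genes called higher were 1.48%, 2.37% and 9.01%. These are letter matches in short windows and do not show binding.

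Mmp13, collagenase 3, cuts fibrillar collagens. Its levels were low: 0.976, 0.616 and 0.767 CPM in young libraries, 4.29, 2.89 and 4.39 CPM in aged controls and 11.4, 1.95 and 3.46 CPM in treated ones. Every library of 24-month-old mice exceeded every young one, and treated replicate 1 stood far above its group. The age difference of 2.29 ± 0.60 was not called (adjusted p = 0.125), and the treated to young difference was called at 2.83 ± 0.61 (adjusted p = 0.0175). That call was lost without any one of the young libraries (adjusted p up to 0.0689), and without treated replicate 1 the value was 1.79. Mmp3, stromelysin 1, the neighbour with the largest count, ran at 219, 116 and 179 CPM in young, 275, 207 and 245 CPM in aged and 250.3, 364 and 189 CPM in treated libraries. Its groups overlapped and no comparison was called (adjusted p = 0.56, 0.779 and 0.128). The median log2 fold change of the 7 cluster members was 0.50 with age, 0.15 with treatment and 0.73 between treated and young RPE. Mmp8, the neutrophil collagenase, and Mmp27 stayed under 2 CPM in every library and were not called.

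Mmp19 is a secreted Mmp that cuts basement membrane proteins. Young libraries read 18.8, 18.9 and 15.2 CPM, aged controls 21.1, 22.3 and 20.4 CPM, and treated libraries 84.4, 56.5 and 27.4 CPM. Every treated library lay above every control, but treated replicate 3 only narrowly. Against young, Mmp19 was higher by 1.67 ± 0.33 (adjusted p = 0.0146). Against aged controls the difference of 1.40 ± 0.33 just missed the threshold (adjusted p = 0.0512), and it passed without treated replicate 3 (1.73, adjusted p = 0.000355). That fit leaves out the treated library nearest to the controls and keeps treated replicate 2, which stood apart. A larger share of all genes is also called in it, as given above. The call against young was lost without young replicate 1 (adjusted p = 0.0523). Part of Mmp19's span, 2739 bases, overlaps Tmem198b, and reads there cannot be told apart.

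Mmp15 encodes MT2-MMP, another membrane-anchored Mmp, and was the member called lower with treatment. It read 7.11, 6.27 and 6.94 CPM in young, 9.05, 9.40 and 8.84 CPM in aged and 6.79, 5.19 and 6.70 CPM in treated libraries. Aged controls were above both other groups, which overlapped. Mmp15 fell by 0.55 on the log2 scale (SE 0.13, adjusted p = 0.0487), while its age difference of 0.43 ± 0.13 was not called (adjusted p = 0.196). The treatment call was lost on leaving out any library other than treated replicate 3 (adjusted p up to 0.197).

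A few other members had the same layout, aged controls above every young and every treated library, and were picked out after their values were seen. They share the aged controls between both comparisons, so the 2 differences are not independent, and none was called in either. Adam17, the sheddase of tumour necrosis factor, read 63.9, 64.6 and 56.7 CPM in young, 81.2, 78.9 and 77.6 CPM in aged and 58.0, 72.5 and 65.1 CPM in treated libraries (0.36, adjusted p = 0.114, and -0.28, adjusted p = 0.108). Adamts15, which cuts proteoglycans of the aggrecan family, read 9.24, 6.42 and 6.21, then 10.8, 11.7 and 12.1, then 6.19, 7.87 and 8.36 CPM (0.66, adjusted p = 0.112, and -0.62, adjusted p = 0.0669). Mmp28, epilysin, and Adamts16 had treatment differences of -0.41 and -0.998 (adjusted p = 0.0923 and 0.0945).

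Adam8, a membrane protease best known from myeloid cells, where it sheds adhesion molecules and receptors, had the smallest treatment p of the members. It lies on chromosome 7 from 139558845 to 139573016 (minus strand, coordinates as deposited). Adam8 read 8.08, 7.41 and 6.99 CPM in young libraries, 10.2, 10.1 and 11.9 CPM in aged controls and 56.1, 55.9 and 38.8 CPM in treated libraries. Every treated library was above every aged control, and every aged control above every young library. It rose with treatment by 2.23 ± 0.15 on the log2 scale (adjusted p = 0.000448) and stood 2.75 ± 0.16 above young (adjusted p = 0.000116), while the age difference of 0.52 ± 0.15 was not called (adjusted p = 0.151). Both calls held without each library in turn and under each other alternative tried in which it was tested. Its promoter window, shown as that of the member with the smallest treatment p, held none of the 3 motifs (RefSeq, GRCm38.p6, chr7:139992513-139992812, minus strand, 5′ to 3′, no capitals).
Adam8: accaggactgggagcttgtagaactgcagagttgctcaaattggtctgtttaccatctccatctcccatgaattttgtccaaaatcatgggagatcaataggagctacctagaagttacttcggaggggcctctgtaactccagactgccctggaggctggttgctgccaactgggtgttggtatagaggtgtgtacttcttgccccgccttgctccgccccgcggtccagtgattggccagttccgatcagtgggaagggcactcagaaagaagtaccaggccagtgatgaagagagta

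Markers of myeloid cells were read beside Adam8. Of 14 neutrophil markers 8 were tested with treatment. By edgeR 0 were called higher and 1 lower, against 2.37% and 1.97% of all genes. An unadjusted p under 0.05 was found for 4, against 24.7% of all genes, and a change above 0 for 7, against 48.5%. The median log2 fold change was 0.96. Between treated and young RPE 2 of the 8 were called higher and 0 lower, against 9.01% and 7.69% of all genes. The 14 together summed to 8.168 to 13.06 CPM in young, 15.94 to 17.55 in aged and 11.33 to 28.2 in treated libraries. Ly6g was at 0 in 8 of the 9 libraries and at 0.0233 CPM in treated replicate 1, and Mpo and Elane were at or near 0 (at most 0.0429 CPM). Lcn2, lipocalin 2, read 0.758, 0.721 and 0.559 CPM in aged controls and 1.05, 4.35 and 2.05 CPM in treated libraries, and Ngp, a neutrophil granule gene, 0.176, 0.195 and 0.239 CPM and 0.558, 1.01 and 0.389 CPM. Neither was called with treatment (1.87 ± 0.48, adjusted p = 0.0566, and 1.67 ± 0.42, adjusted p = 0.0539), and both were called against young (adjusted p = 0.0037 and 0.0119). S100a8 and S100a9 were highest in treated replicate 2, at 3.75 and 5.43 CPM, and were not called. Csf3r, the receptor of granulocyte colony-stimulating factor, was called lower with treatment at -0.75 ± 0.17 (adjusted p = 0.041). Of the 20 macrophage and microglia markers 5 had a treatment change above 0, against 48.5% of all genes, with a median of -0.11. In treated libraries 2 lay wholly higher and 5 wholly lower, against 14.7% and 17.5% of all genes. Cx3cr1, the fractalkine receptor of microglia, read 26.7, 25.7 and 23.1 CPM in aged controls and 2.09, 7.08 and 11.2 CPM in treated libraries, and was not called (adjusted p = 0.0669). The lipopolysaccharide co-receptor gene Cd14 was the 1 called higher, from 6.75, 5.40 and 5.79 CPM in aged controls to 55.3, 74.7 and 12.2 CPM in treated libraries (2.98 ± 0.56, adjusted p = 0.0329). Replicate 3 was the lowest treated library for both genes, but their profiles differed. There Adam8 read 38.8 CPM, against at most 11.9 CPM in controls, and Cd14 12.2 CPM, against at most 6.75 CPM. Cd14 was highest in replicate 2, while Adam8 was nearly level in replicates 1 and 2. The Cd14 and Csf3r calls were lost without treated replicate 1 or 2 or any aged control, and for Cd14 also without young replicate 2 or 3, for Csf3r without young replicate 2 (adjusted p up to 0.159 and 0.162). The part of these cells in the Adam8 result was not tested.

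Adam9, a broadly made sheddase whose loss in humans causes a cone-rod dystrophy, read 95.4, 96.0 and 91.5 CPM in young, 98.5, 102.3 and 97.6 CPM in aged and 182.3, 164.2 and 111.5 CPM in treated libraries. All treated libraries were above all controls, with replicate 3 nearest to them. Adam9 rose with treatment by 0.62 ± 0.15 (adjusted p = 0.0458) and stood 0.70 ± 0.15 above young (adjusted p = 0.0146). The treatment call was lost on leaving out any library except treated replicate 3, without which adjusted p was 0.00032 (otherwise up to 0.174). The call against young was lost without young replicate 1 (adjusted p = 0.0514).

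Adam28, a protease known from lymphocytes and epididymis, was at most 0.559 CPM in every control library. In treated libraries it read 0.698, 12.3 and 1.83 CPM, so replicate 2, the library that stood apart, held most of it. It was called against young at 3.95 ± 1.01 (adjusted p = 0.0335), and without treated replicate 2 the value was 2.01 (adjusted p = 0.0312). That call was lost without any one of the 6 control libraries (adjusted p up to 0.107), and against aged controls it was not called (3.33 ± 0.96, adjusted p = 0.082). Adam7, an Adam without an active catalytic site that is known from the epididymis, was the member called lower in treated than in young RPE. It read 10.3, 5.65 and 5.89 CPM in young, 5.26, 4.68 and 3.27 CPM in aged and 3.47, 2.04 and 3.24 CPM in treated libraries, with young replicate 1 highest. Adam7 fell by 1.32 on the log2 scale (SE 0.29, adjusted p = 0.0167), and without young replicate 1 by 0.99 (adjusted p = 0.0546). The alpha-secretase gene Adam10, the Adam with the largest count, stayed between 138.5 and 153.3 CPM in all 9 libraries and was not called (adjusted p = 0.789, 0.466 and 0.894).

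Adam members that were not called but had the next smallest p-values were modest in size. Adam32, which lacks a working catalytic site, read 7.81, 10.6 and 10.2 CPM in young, 9.40, 8.65 and 9.10 CPM in aged and 14.8, 10.4 and 15.1 CPM in treated libraries. Its treated libraries lay above all aged controls and overlapped the young ones, and the treatment difference of 0.57 ± 0.16 missed the threshold (adjusted p = 0.0721). With age, Adam21 was lower by 0.57 on the log2 scale (SE 0.19, adjusted p = 0.224), and every aged control lay below every young library. Adam19, meltrin beta, a sheddase of neuregulins, had a larger age p than Adam21 and went the other way. It differed by 0.55 ± 0.19 (adjusted p = 0.255), at 28.0, 42.2 and 41.1 CPM in young and 54.97, 51.4 and 57.1 CPM in aged libraries, which did not overlap. Among Mmps, Mmp11, stromelysin 3, differed by 0.59 ± 0.22 with age (adjusted p = 0.313), and Mmp16, the membrane-anchored MT3-MMP, by -0.54 ± 0.20 between treated and young RPE (adjusted p = 0.0946).

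**Figure D3:**
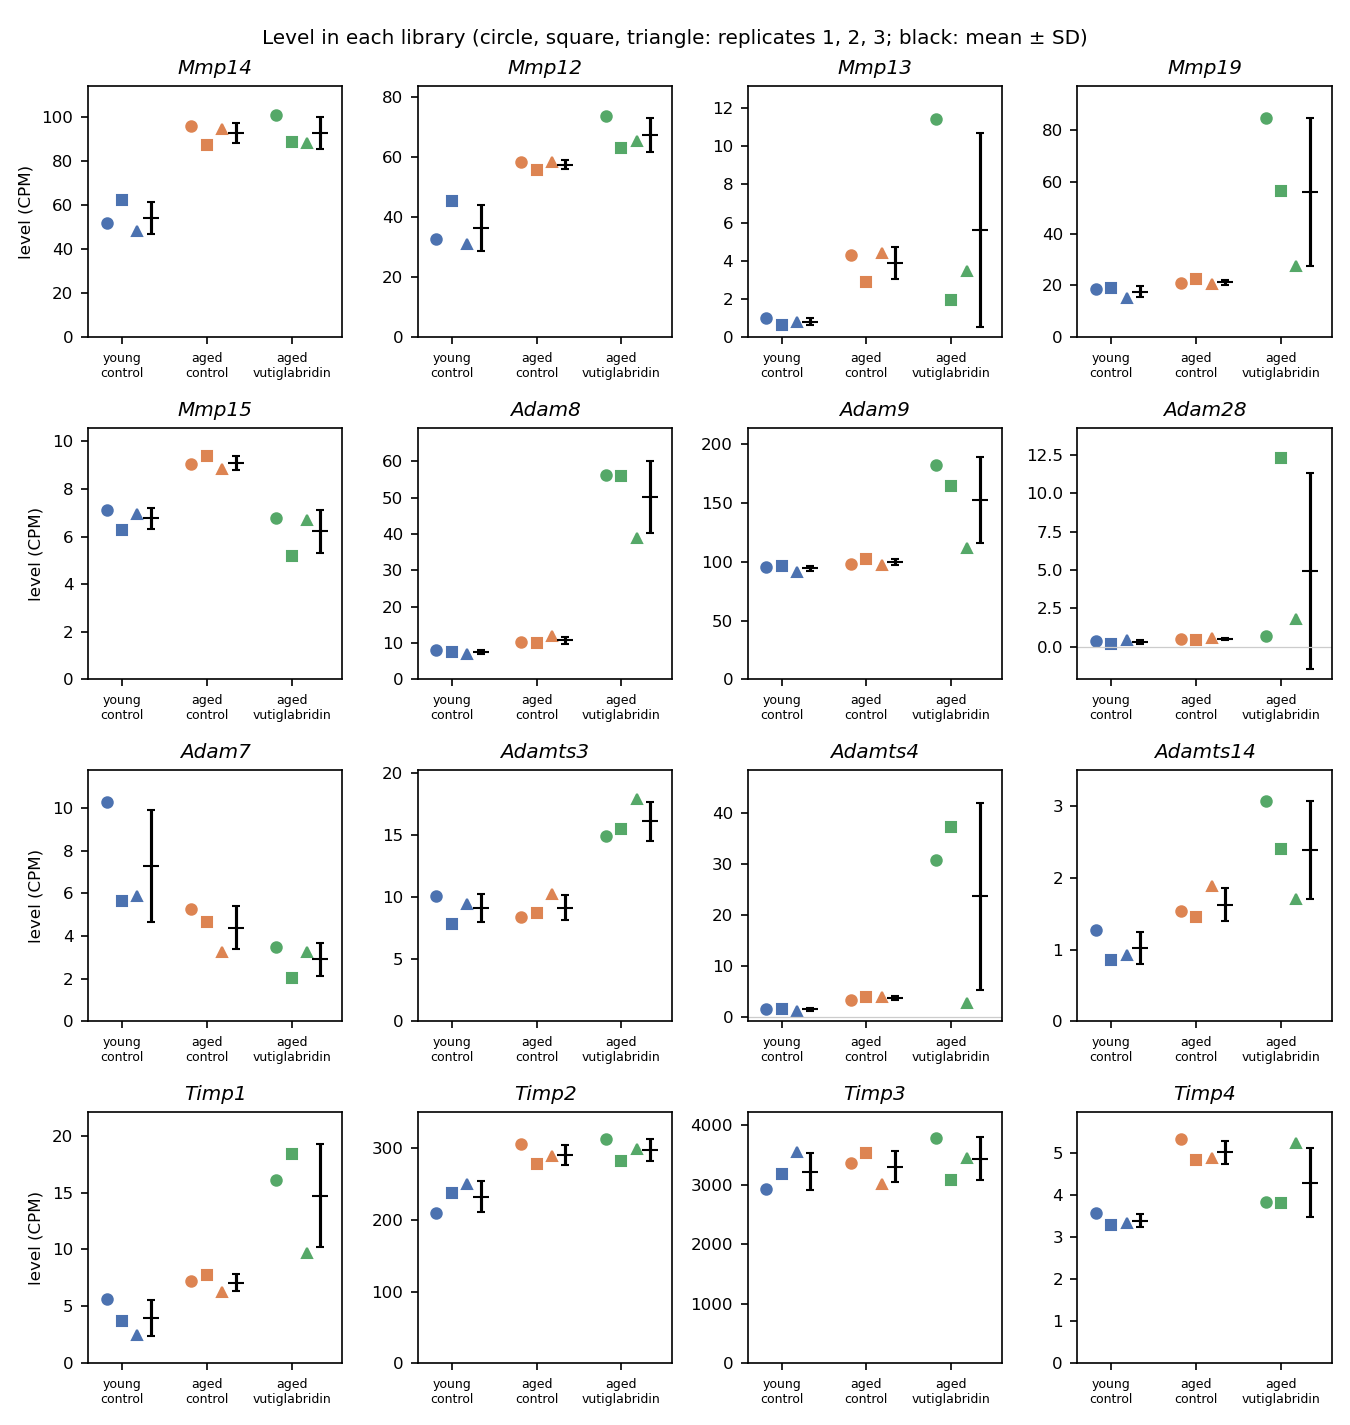
Level in CPM of the called members and of Timp3 and Timp4 in each library by group; circles, squares and triangles are replicates 1, 2 and 3, and black marks the mean ± SD of 3 libraries. Adam8 reads 38.8 to 56.1 CPM in treated libraries and at most 11.9 CPM in controls, while Mmp14 is higher in aged control and treated libraries than in young ones.

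Among the Adamts genes, Adamts3 was called with treatment. It encodes a procollagen N-proteinase that also processes the lymphangiogenic factor Vegfc. Levels were 10.1, 7.85 and 9.45 CPM in young, 8.43, 8.75 and 10.3 CPM in aged and 14.9, 15.5 and 17.9 CPM in treated libraries. Young and aged controls overlapped, and the 3 treated libraries were above both and close together. Adamts3 rose with treatment by 0.81 ± 0.13 (adjusted p = 0.0191) and stood 0.82 ± 0.13 above young (adjusted p = 0.00569). Against aged controls it was no longer called without any one of them (adjusted p up to 0.112), and against young it held without each library in turn. Of the related procollagen N-proteinases, Adamts14 was called against young, at 1.23 ± 0.27 (adjusted p = 0.0157), with 1.27, 0.858 and 0.927 CPM in young, 1.53, 1.46 and 1.90 CPM in aged and 3.07, 2.40 and 1.70 CPM in treated libraries. Its treated and aged control libraries overlapped, and the call was lost without young replicate 2 (adjusted p = 0.0598). Adamts2 was not called in any comparison.

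Several Adamts proteases that cut aggrecan and versican varied widely among the treated libraries. Adamts4, aggrecanase 1, read 1.64, 1.63 and 1.20 CPM in young, 3.25, 3.84 and 3.91 CPM in aged and 30.9, 37.4 and 2.81 CPM in treated libraries. Treated replicates 1 and 2 were far above all controls and replicate 3 was below all aged controls. It was called against young at 3.998 ± 0.83 (adjusted p = 0.0201) and not against aged controls (2.69 ± 0.77, adjusted p = 0.086). The call against young was lost without any one young library (adjusted p up to 0.0709) or without treated replicate 2 (adjusted p = 0.0512).

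Adamts9, a versican-cleaving protease, read 93.6, 79.0 and 130.0 CPM in young, 81.1, 84.2 and 80.1 CPM in aged and 241.8, 359 and 96.7 CPM in treated libraries. Treated libraries lay above aged controls, with replicate 3 near them. The Adamts9 difference of 1.51 ± 0.41 was not called (adjusted p = 0.0734) and passed the threshold without treated replicate 3 (1.88, adjusted p = 0.00105). Adamts1, a relative of Adamts9, read 74.4, 92.3 and 94.5, then 56.3, 49.1 and 68.1, then 159.7, 265.6 and 40.5 CPM. Treated replicate 3 was below every aged control while replicates 1 and 2 were above every other library. The difference of 1.42 ± 0.56 was not called (adjusted p = 0.171), and without treated replicate 3 it was 1.88 (adjusted p = 0.00108). For Adamts9 and Adamts1 alike, that fit leaves out the treated library nearest to the aged controls, and a larger share of all genes is called in it. Adamts5 was not called against aged controls or young (adjusted p = 0.163 and 0.058), nor were Adamts8 (0.077 and 0.0609) and Adamts17 (0.295 and 0.0547).

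Immediate early genes, which answer stimuli within minutes and include the AP-1 subunits, also differed among the treated libraries. A list of 16 of them, drawn up after the values were seen, summed to 161.1 to 221.6 CPM in young and 198.5 to 235.5 CPM in aged control libraries. In treated replicates 1, 2 and 3 it summed to 548.6, 1457 and 330.0 CPM. Adamts1, Adamts4, Adamts9 and Timp1 were highest in replicate 2, then replicate 1, then replicate 3, which is the order of the summed immediate early genes. Other members ran otherwise: Mmp19, Adam9 and Adam8 were highest in replicate 1 and lowest in replicate 3, Mmp12 was highest in replicate 1 and lowest in replicate 2, and Adamts3 and Adamts8 were highest in replicate 3. The members set beside the list were picked after their values were seen. With 3 libraries this order is a description, and the part of the immediate early genes in the treatment differences was not tested.

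**Figure D4:**
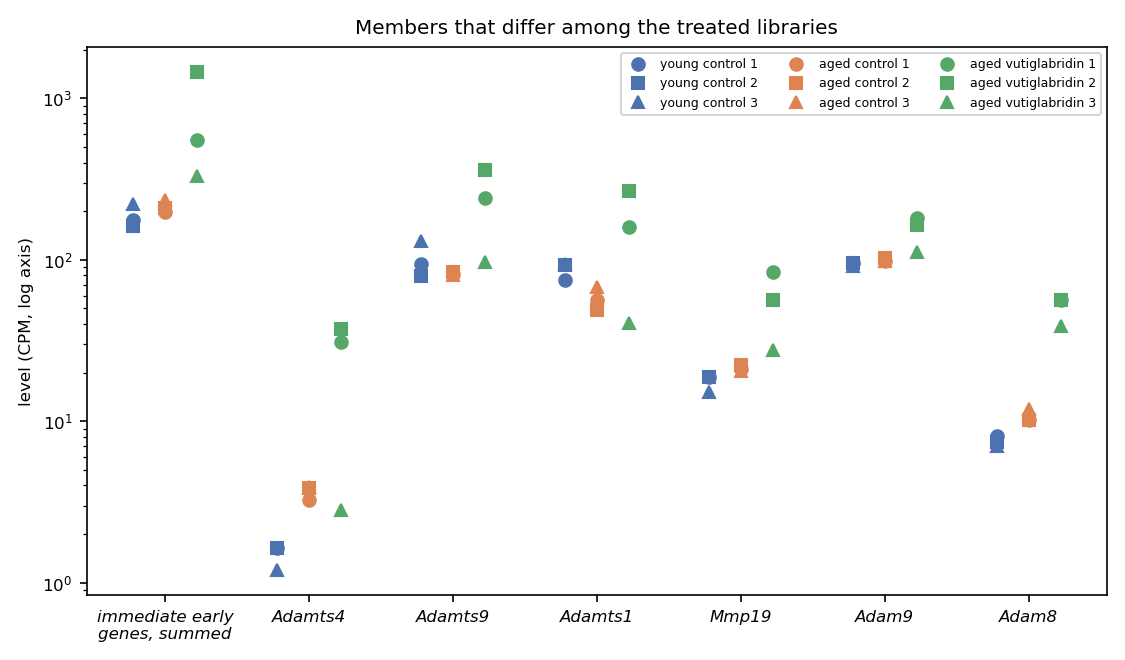
Level in CPM (log axis) of 16 immediate early genes, summed, and of 6 members in each library; colours stand for groups and marker shapes for replicates. Treated replicate 3 is the lowest treated library for the summed genes (330.0 CPM) and for Adamts1 (40.5 CPM).

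Of the Timps, Timp1 and Timp2 were called between treated and young RPE, and no Timp was called with age or with treatment alone. Timp1, an inducible inhibitor, read 5.68, 3.74 and 2.52 CPM in young, 7.20, 7.74 and 6.29 CPM in aged and 16.1, 18.4 and 9.69 CPM in treated libraries. The 3 groups did not overlap, with young lowest and treated highest. Timp1 was 1.89 ± 0.30 higher in treated than in young RPE (adjusted p = 0.00569), a call that held without each library in turn. The steps of 0.84 ± 0.30 with age and 1.06 ± 0.29 with treatment were not called (adjusted p = 0.291 and 0.0681), and without treated replicate 3 the treatment step was 1.29 (adjusted p = 0.0119). Replicate 3 was the treated library nearest to the aged controls, and a larger share of all genes is called without it. Timp2, which binds Mmp14 in the complex that activates Mmp2, read 209, 238 and 251 CPM in young, 306, 278 and 289 CPM in aged and 313, 282 and 299.7 CPM in treated libraries. All libraries of 24-month-old mice were above all young ones, and aged and treated libraries overlapped. Timp2 was 0.36 ± 0.09 higher in treated than in young RPE (adjusted p = 0.0276); the age difference of 0.32 ± 0.09 was not called (adjusted p = 0.145). Leaving out young replicate 1 or 2, aged replicate 1 or 3, or the treated library of replicate 1 ended the Timp2 call (largest adjusted p = 0.0899), and its span overlaps Cep295nl on the same strand.

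Timp3, the inhibitor that binds to the matrix and the most counted member, read 2922, 3181 and 3541 CPM in young, 3365, 3521 and 3010 CPM in aged and 3784, 3077 and 3445 CPM in treated libraries. The 3 groups overlapped fully. Its log2 fold change was 0.04 ± 0.12 with age, 0.06 ± 0.12 with treatment and 0.10 ± 0.12 between treated and young RPE (adjusted p = 0.956, 0.796 and 0.604). Timp4 read 3.57, 3.28 and 3.34 CPM in young, 5.33, 4.83 and 4.89 CPM in aged and 3.84, 3.82 and 5.24 CPM in treated libraries. Aged and treated libraries were all above young ones, yet no comparison was called (adjusted p = 0.15, 0.416 and 0.166).

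In the mouse genome Timp1, Timp3 and Timp4 each lie whole within a synapsin gene on the other strand, and synapsins coat synaptic vesicles. In these counts Timp3, with 49094 bases of span, equalled 96.46% to 97.39% of the count listed for Syn3 in every library, so the Syn3 value is nearly all shared with Timp3. Timp1, with 4572 bases, equalled 40.99% to 69.8% of Syn1's count, and Timp4 30.6% to 43.28% of Syn2's. The rest of the Syn1 count, after subtracting Timp1's, was 111 to 203 reads in young, 200 to 287 in aged and 299 to 444 in treated libraries, so it was higher in the treated libraries too. Syn1 itself was called with treatment at 0.92 ± 0.19 (adjusted p = 0.0311), a call lost without young replicate 2, any aged control, or either of treated replicates 1 and 2 (largest adjusted p = 0.145). Reads of a Timp and of its synapsin over the shared span cannot be told apart in this table. Of the 67 members 31 overlap another gene, as do 44.3% of all genes.

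**Figure D5:**
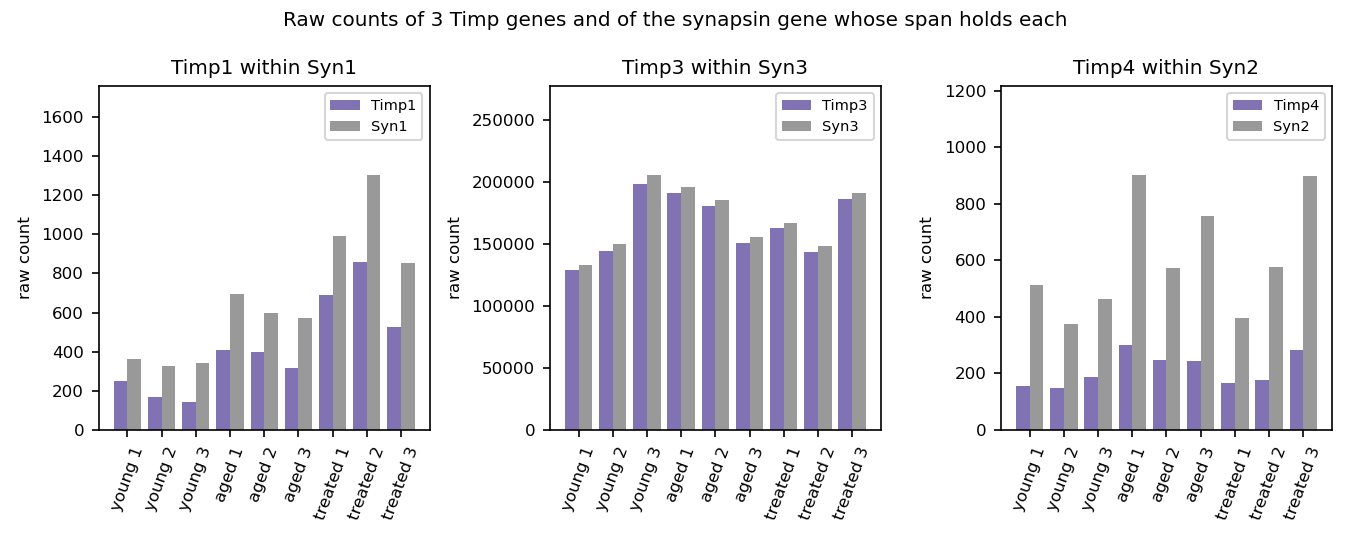
Raw counts in each of the 9 libraries of Timp1, Timp3 and Timp4 and of the synapsin gene whose span holds each. Timp3 and Syn3 nearly coincide, at 96.46% to 97.39%, while Timp1 and Timp4 make up less of the counts of Syn1 and Syn2.

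Genes that act with the metalloproteinases were read from 7 lists. Their counts stand beside 1.48% of all genes called higher and 0.202% lower with age, 2.37% and 1.97% with treatment, and 9.01% and 7.69% between treated and young RPE. The plasminogen activation list covers the making of plasmin, a protease that opens several pro-Mmps. Of its genes, Plaur, the urokinase receptor, went from 5.98, 6.43 and 6.62 CPM in aged controls to 27.9, 39.0 and 14.0 CPM with treatment (2.09 ± 0.36, adjusted p = 0.0236). All 3 treated libraries were above all aged controls, with replicate 2 highest. Serpine2, an inhibitor of thrombin and urokinase, rose by 0.71 ± 0.17 (adjusted p = 0.0443), and the plasminogen receptor gene Plgrkt fell by 0.44 (SE 0.09, adjusted p = 0.0278).

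Of 27 genes of Bruch's membrane and basement membranes, 2 rose with age and 4 with treatment, none fell in either, and list medians were -0.07 and 0.03. Fn1, fibronectin, read 100.1, 123.7 and 102.9 CPM in young, 206.4, 204.4 and 199.0 CPM in aged and 433.2, 607.6 and 387.1 CPM in treated libraries. The 3 groups were well apart, and Fn1 rose by 0.90 ± 0.16 with age (adjusted p = 0.0188) and by 1.23 ± 0.16 with treatment (adjusted p = 0.0072). Lox, which crosslinks collagen and elastin, rose with treatment by 1.32 ± 0.24 (adjusted p = 0.0274), as did the basement membrane collagen genes Col4a1 (0.62 ± 0.15, adjusted p = 0.0485) and Col4a2 (0.69 ± 0.14, adjusted p = 0.03). Loxl1, an elastin crosslinker, rose with age by 0.51 ± 0.10 (adjusted p = 0.0337). Between treated and young RPE 6 of the 27 were higher and 2, Lama2 and Lamb1, were lower.

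Of 17 genes for the maturation and traffic of metalloproteinases, 1 rose with age and 2 with treatment, and none fell in either. Between treated and young RPE 4 were higher and 3 were lower: Bsg, the Mmp inducer basigin (-0.60 ± 0.14, adjusted p = 0.0175), the proprotein convertase gene Pcsk5 (-0.54 ± 0.11, adjusted p = 0.0146) and the tetraspanin gene Tspan10 (-0.65 ± 0.20, adjusted p = 0.0473). Bsg was lost without young replicate 1 (adjusted p = 0.0633), and Tspan10 without any library except young replicate 3 and treated replicate 1 (adjusted p up to 0.142). Rhbdf2, the inactive rhomboid that carries Adam17 to the surface, read 9.22, 10.8 and 9.42 CPM in young, 16.4, 13.6 and 17.0 CPM in aged and 18.4, 16.9 and 16.3 CPM in treated libraries, and rose with age by 0.67 ± 0.12 (adjusted p = 0.0214). Its relative Rhbdf1 (0.48 ± 0.11, adjusted p = 0.0424) and Tspan14, a tetraspanin that binds Adam10 (0.47 ± 0.11, adjusted p = 0.045), rose with treatment. Of 28 tested genes of proteins shed by Adams, 2 rose with age: the receptor gene Tnfrsf1b (0.98 ± 0.13, adjusted p = 0.007) and the chemokine gene Cxcl16 (0.96 ± 0.13, adjusted p = 0.00854). With treatment 1 rose, the growth factor gene Nrg1 (0.92 ± 0.22, adjusted p = 0.0479). Between treated and young RPE 8 were higher and 3 lower.

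Among 13 tested other metalloproteinases and procollagen processing genes, Mme, the neprilysin gene, fell by 1.22 on the log2 scale with age (SE 0.12, adjusted p = 0.00303). It read 17.6, 19.3 and 21.6 CPM in young libraries and 8.64, 7.76 and 8.74 CPM in aged controls, with no overlap. Pappa, a metalloproteinase that cuts insulin-like growth factor binding proteins, rose with treatment by 0.90 ± 0.14 (adjusted p = 0.0175). Of 11 cathepsins and cystatins 1 rose with age, Ctss (1.28 ± 0.20, adjusted p = 0.012), a protease of macrophages and other antigen-presenting cells, beside the macrophage markers given above. Of 16 tested ADAMTS-like and lectican substrate genes none was called with age or treatment by edgeR (3 and 4 had an unadjusted p under 0.05), and Ltbp2 was higher in treated than in young RPE (1.22 ± 0.19, adjusted p = 0.00493).

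The calls of these list genes were less even over the libraries than their counts show. With age, Mme and Tnfrsf1b held without each library in turn (adjusted p up to 0.0249 and 0.0434). Cxcl16 was lost without aged replicate 1 (0.0529), and Loxl1 without any one of the 6 controls (up to 0.143). Fn1 was lost without young replicate 1 or 3 or any aged control (up to 0.102), and Ctss without young replicate 1 or any aged control (up to 0.0661). Rhbdf2 was lost without replicate 1 or 3 of either control group (up to 0.123). With treatment, each call named from the 7 lists was lost without aged replicate 1 or without aged replicate 2, and each but that of Fn1 without aged replicate 3 (adjusted p up to 0.192). Without treated replicate 2, the library that stood apart, Serpine2, Col4a1, Rhbdf1, Tspan14 and Nrg1 were also lost (0.0888, 0.0788, 0.0968, 0.0867 and 0.086). Fn1 then kept its treatment call at 1.01 (adjusted p = 0.00245), Plaur at 1.72 (0.0329) and Lox at 1.07 (0.0434). Single young libraries or treated replicate 1 ended the calls of Nrg1, Col4a1, Col4a2, Rhbdf1, Tspan14, Serpine2 and Plgrkt as well.

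Markers of the RPE and of other cell types moved in these libraries too. Their counts stand beside 9.01% of all genes called higher and 7.69% lower between treated and young RPE. With treatment the shares were 2.37% and 1.97%, and with age 1.48% and 0.202%. Between treated and young RPE 7 of 9 melanocyte markers and 6 of 13 RPE markers were called lower, and 1 RPE marker, Best1, higher. Pmel is on both lists, and the RPE is itself pigmented, so the pigment genes cannot be credited to melanocytes. In the same comparison 5 of 16 endothelial markers were called lower (Tek, Tie1, Kdr, Egfl7 and Cldn5) and 1 higher (Erg), and 3 of 14 fibroblast and mural markers were lower (Dcn, Lum and Myh11). With treatment against aged controls none of these 16 and 14 genes was called by edgeR. An unadjusted p under 0.05 was found for 9 and 2 of them, against 24.7% of all genes. Of 15 lymphocyte markers 5 were called higher with age (median 1.17), and 4 were called lower with treatment: the B cell genes Cd79a, Ms4a1 and Ighm and the granzyme gene Gzma. In treated against young RPE 6 lymphocyte markers were higher and 3 lower, and the list summed to 13.33 to 15.37 CPM in young, 21.03 to 31.52 in aged and 15.4 to 19.3 in treated libraries. Of 18 rod markers 1 was higher and 1 lower between treated and young RPE, with a median of 1.01. The part of any of these cell types in the members' differences was not tested.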

How the data were processed

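RNA of mouse RPE was measured in 9 libraries made, per the labels' protocols, with a kit for stranded total RNA. Per the submitters' processing notes, the authors used Bowtie2 2.3.4.1, featureCounts 1.6.0 and DESeq2 (its version is not given) and named GRCm38 as build. The table's chromosome accessions carry versions of a later assembly, so coordinates are given as deposited and none was converted. The authors deposited raw counts and FPKM values per gene, per the file headers. Those deposited FPKM values are each count over the whole gene span, introns included, and over the library total (within 1e-06), and were not tested. The deposited biotype column was not used, since it is out of step with the symbols. No read counting by strand is stated in the sources used here. Counts of Timp3 and Syn3, on opposite strands, nearly coincide (96.46% to 97.39%), so reads there were listed under both genes. Levels of genes that overlap another on either strand are therefore uncertain.

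Counts were filtered with filterByExpr, scaled with TMM factors (trimmed mean of M values), then fitted over all 9 libraries without covariates by the robust quasi-likelihood method of edgeR 4.0.16 in R 4.3.3, with Benjamini-Hochberg adjustment over 25273 genes. The SE came from the log2 fold change and its F statistic, and CPM from counts and TMM-scaled library sizes. The scripts were tested on simulated counts. Replicates differed beyond sampling noise (mean chi-square per gene 7.16 to 106). The members and lists were chosen with earlier results of these data known. Named were Adam8, Mmp14, all Timps, called members, up to 3 members per family and comparison with the next smallest p, the 2 per family with most counts, members beside the count threshold and up to 4 called genes per list and comparison; not all are in the text, and some genes and the count of the plasminogen activation list are not reported here. Alternatives were other size factors, total counts, DESeq2 1.42.0, limma-voom (limma 3.58.1), other filters, 2 groups, a replicate block, fits without libraries that stand apart or overlapping genes, and each library left out.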

Additional observations from a re-analysis of the deposited data

How the results depend on the processing

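Of 1255 recomputed values of named members, 1074 kept direction and side of the threshold, 82 passed it, 77 no longer passed it and 22 changed sign. With age, 2 members were called, against 7 with DESeq2, 14 with limma-voom and 12 with only the 2 groups compared, and 0 to 4 with a library left out. With treatment the 4 calls became 12 with DESeq2, 12 with limma-voom, 2 with only the 2 groups, 1 among genes overlapping no other (36 members tested), and 1 to 17 with a library left out. Between treated and young RPE the 13 calls became 20 with DESeq2, 5 with only the 2 groups, 8 without both libraries that stand apart, 6 among genes overlapping no other, and 6 to 19 with a library left out. In the main fit 1.68%, 4.34% and 16.7% of all genes were called in the 3 comparisons. That share changes with the fit, as given above without treated replicate 3. For the other fits it is not given here, so a larger or smaller count says nothing particular about the members. Sign changes were all in values near 0 that were not called, and the cause was not tested. Mmp14 with treatment was -0.0008, and 0.0197 with relative log expression factors and with DESeq2, 0.0264 with limma-voom, 0.0315 with at least 1 CPM in 3 libraries, 0.0189 with 2 groups, 0.0287 without both libraries that stand apart, 0.0145 among genes overlapping no other, and -0.0716 to 0.0384 with a library left out. Timp3 with age was -0.0272 without both libraries that stand apart (-0.0273 to 0.1128 with a library left out), and with treatment -0.0207 to 0.1339. Mmp3 with treatment was -0.1415 without both (-0.1377 to 0.3445). With total counts, Timp2 with treatment was -0.0216 (-0.0031 to 0.0766 with a library left out) and Adam10 between treated and young -0.0083 (-0.0037 to 0.0418). Replicate numbers share only a number: deviations of same-numbered libraries correlated over 0.1 in 2 of 9 pairs, and with the replicate block the calls were 2, 2 and 12; with age Mmp12 was lost (adjusted p = 0.0692) and Mmp13 gained (0.0461), and with treatment Adam9 and Mmp15 were lost. Fits without a library assume the rest vary alike, and low counts limit members such as Mmp8, Mmp27 and Adam28.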
